A study of Mus musculus with 10 samples.

Results

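The receptors for the constant part of IgG, their shared signalling adaptor and the kinase that acts next were examined in the RNA of brain microglia from mice given GW2580, an orally active inhibitor of the CSF1 receptor kinase. The set holds 7 genes chosen by symbol, Fcgr1, Fcgr2b, Fcgr3, Fcgr4, Fcer1g, Fcgrt and Syk, of 46152 genes counted, and all 7 were above the filter on low counts together with 28419 genes in all. C57BL/6J mice aged 8 to 12 weeks received 80 mg/kg/d of GW2580, or its vehicle alone (0.1% Tween 80 with 0.5% Hydroxymethyl Propyl-cellulose), by oral gavage for 8 days. Each group held 5 mice, 2 male and 3 female, with 1 library per mouse, and the labels name no engineered allele. The cells had passed through a Percoll gradient and a magnetic selection for CD11b, a surface protein that monocytes and granulocytes carry as well, so the selection does not separate these cells from microglia.

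Fc gamma receptors are how phagocytes sense antibody-coated targets. When IgG on a target clusters the activating receptors, Src family kinases phosphorylate the pair of tyrosines of the immunoreceptor tyrosine-based activation motif (ITAM) that sits not in the receptor but in its partner, the common gamma chain encoded by Fcer1g. Syk docks on that phosphorylated motif and passes the signal to phospholipase C gamma, Vav exchange factors and phosphoinositide 3-kinase. Fcgr2b works the other way: its own tail holds an inhibitory motif (ITIM) that recruits the lipid phosphatase SHIP-1. In the brain, microglia are the main resident cells that carry these receptors.

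The motifs that give these proteins their opposite roles can be read in the coding sequence of the GENCODE transcripts (GRCm38). An ITAM was searched in the translated principal transcripts as a tyrosine, any 2 residues, a leucine or isoleucine, 6 to 8 residues and the same again. It was found 1 time each in Fcer1g (residues 65 to 79 of 86) and in Tyrobp, the DAP12 adaptor of microglia (residues 92 to 106 of 114), and in none of Fcgr1, Fcgr2b, Fcgr3, Fcgr4, Fcgrt or Syk. The ITIM of Fcgr2b was found as a tyrosine with isoleucine before and leucine after it at residues 317 to 322. Letters of that kind also occurred in other proteins of the set, as at 3 places in Fcgr1, so they do not mark an ITIM by themselves. The stretches below are shown because they are the parts of the adaptors on which Syk docks and the part of Fcgr2b that opposes it. Capitals mark the codons of the motif's tyrosines and of its leucines or isoleucines. The Fcer1g stretch (minus strand) runs over chr1:171229880-171230081 with an intron inside it, the Tyrobp stretch (plus strand) over chr7:30415661-30417391, also across introns, and the Fcgr2b stretch (minus strand, residues 314 to 325 of 340) over chr1:170961062-170961097 within 1 exon.
Fcer1g: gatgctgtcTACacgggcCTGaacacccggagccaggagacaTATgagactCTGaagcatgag
Tyrobp: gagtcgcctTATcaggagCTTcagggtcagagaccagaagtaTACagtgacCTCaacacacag
Fcgr2b: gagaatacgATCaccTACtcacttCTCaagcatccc

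The coding sequences of Fcgr2b and Fcgr3 are close relatives, with 86.7% of 782 aligned bases identical and a longest identical run of 129 bases. The other 5 pairs of the 4 receptors were 64.1 to 67.3% identical, with no identical run longer than 14 bases. The counts took only fragments that aligned to a single place, so any fragment lying wholly in a stretch identical in Fcgr2b and Fcgr3 would count for neither gene. How many fragments of this pair were lost in that way was not measured.

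Fcgr2b, Fcgr3, Fcgr4 and Fcer1g lie on chromosome 1 between positions 170960558 and 171234349, Fcgr1 lies on chromosome 3, Fcgrt on chromosome 7 and Syk on chromosome 13 (GRCm38.p6, RefSeq). In the 250 bases before the annotated starts, the PU box GAGGAA, the core letters bound by the myeloid factor PU.1, was searched on both strands, where it reads TTCCTC on the reverse. These letters were present in 23.3% of the 32851 promoter windows of the RefSeq table. Among the 7 genes they were present for Fcgr1, Fcgr3, Fcgr4 and 1 of 2 annotated starts of Syk, and not found in the windows of Fcgr2b, Fcer1g or Fcgrt. The activating receptors are shown because the motif lay within 55 bases of each start, on the strand opposite to the gene, with the motif in capitals. The Syk match, not shown, was as near, at 9 bases before its start, but on the strand of the gene. Fcgr1 is at chr3:96293992-96294051 (minus strand, match 55 bases before the start), Fcgr3 at chr1:171059395-171059436 (minus strand, 15 bases before the downstream one of 2 starts in the table) and Fcgr4 at chr1:171018877-171018925 (plus strand, 22 bases before the start).
Fcgr1: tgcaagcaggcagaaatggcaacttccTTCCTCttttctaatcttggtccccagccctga
Fcgr3: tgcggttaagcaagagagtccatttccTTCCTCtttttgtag
Fcgr4: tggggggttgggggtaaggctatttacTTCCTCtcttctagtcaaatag

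Fcgr1 and Fcgr3 shared a run of 14 bases around the match, ttccttcctctttt, which stood in 2 of the 32851 windows. These 2 are the Fcgr1 and Fcgr3 windows from which the run was taken, so the count is no separate evidence about it. The longest run that any other pair among Fcgr1, Fcgr2b, Fcgr3, Fcgr4 and Fcer1g had in common was 9 bases. A match in letters is a description of the sequence and does not show that a factor binds there.

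Libraries differed from each other in ways that the groups did not explain. Counts on genes ran from 12550418 to 26079343 per library, and the share of fragments on no annotated exon from 38.4 to 60.1%. Levels are given as CPM, counts divided by the TMM-scaled total of their library. The first principal component of log2 CPM held 47.1% of the variance of 7580 genes. On it the first 4 vehicle libraries had scores of 35.0 to 40.5 and GW2580 5 had 45.8. Vehicle 5 had -77.9, replicates 1, 3 and 4 of GW2580 had -46.4 to -37.8, and replicate 2 had 5.20. Vehicle 5 thus stood with most of the treated libraries and GW2580 5 with most of the vehicle libraries. Both come from female mice, so sex cannot tell whether their labels were exchanged. The labels were kept as given, and the group values of genes such as Fcer1g, Tyrobp and Syk hold only if these labels are right. Values without these libraries are given where they bring a gene past the thresholds or take it back, and for the members that they move most. Summed CPM of 12 microglial markers (Selplg, Tmem119 and others) were 16279 in Vehicle 5 and 26701 to 34910 in the other vehicle libraries, and 22039 to 73519 with GW2580. In bulk RNA, fewer cells of a type and less RNA per cell cannot be told apart. Summed monocyte and granulocyte markers, 13 genes led by Ngp, S100a9 and S100a8, ranged from 796 in Vehicle 5 to 29818 in Vehicle 1, and with GW2580 from 878 to 15088, so these cells or their RNA were present to very different extents.

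Over all genes, 3046 of 28419 (10.7%) differed by more than 2-fold at an unadjusted p under 0.05, the thresholds of the study, 1141 of them higher (4.01%) and 1905 lower (6.7%) with GW2580. At that unadjusted p and any fold there were 4186 genes (14.7%). After Benjamini-Hochberg adjustment 0 genes passed 0.05 in edgeR's quasi-likelihood test, where the smallest adjusted p was 0.280, and limma-voom also gave 0, whereas edgeR's exact test gave 28, its likelihood ratio test 53 and DESeq2 232. The median log2 fold change of all genes was -0.03 with TMM scaling and 0.23 with scaling by library size alone, and with the latter the split turned to 2123 higher and 875 lower. Upper quartile factors gave 1196 higher and 1230 lower.

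Against that background, 0 of the 7 genes passed the thresholds, 2 had estimates above 0 and 5 below, and their median log2 fold change was -0.34. With the mean level of the cytosolic ribosomal protein genes as a covariate, 6 of the 7 estimates were above 0. Fcgr1 was at 0.38, Fcgr2b at 0.42 and Fcgr3 at 0.48 (unadjusted p = 0.457, 0.389 and 0.436, edgeR). Ribosomal protein genes are short, a class that was lower with GW2580 (below), so this covariate may take up part of the treatment difference. Fcer1g had the estimate farthest from 0, at -0.94 on the log2 scale, and Syk the highest, at 0.46. With 5 mice per group the standard errors ran from 0.36 to 0.79, so changes of the size estimated here were not detectable at this spread, and the data do not show that the genes were unaffected by treatment. The 7 genes had 211 to 50734 fragments per gene and library.

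**Figure D1:**
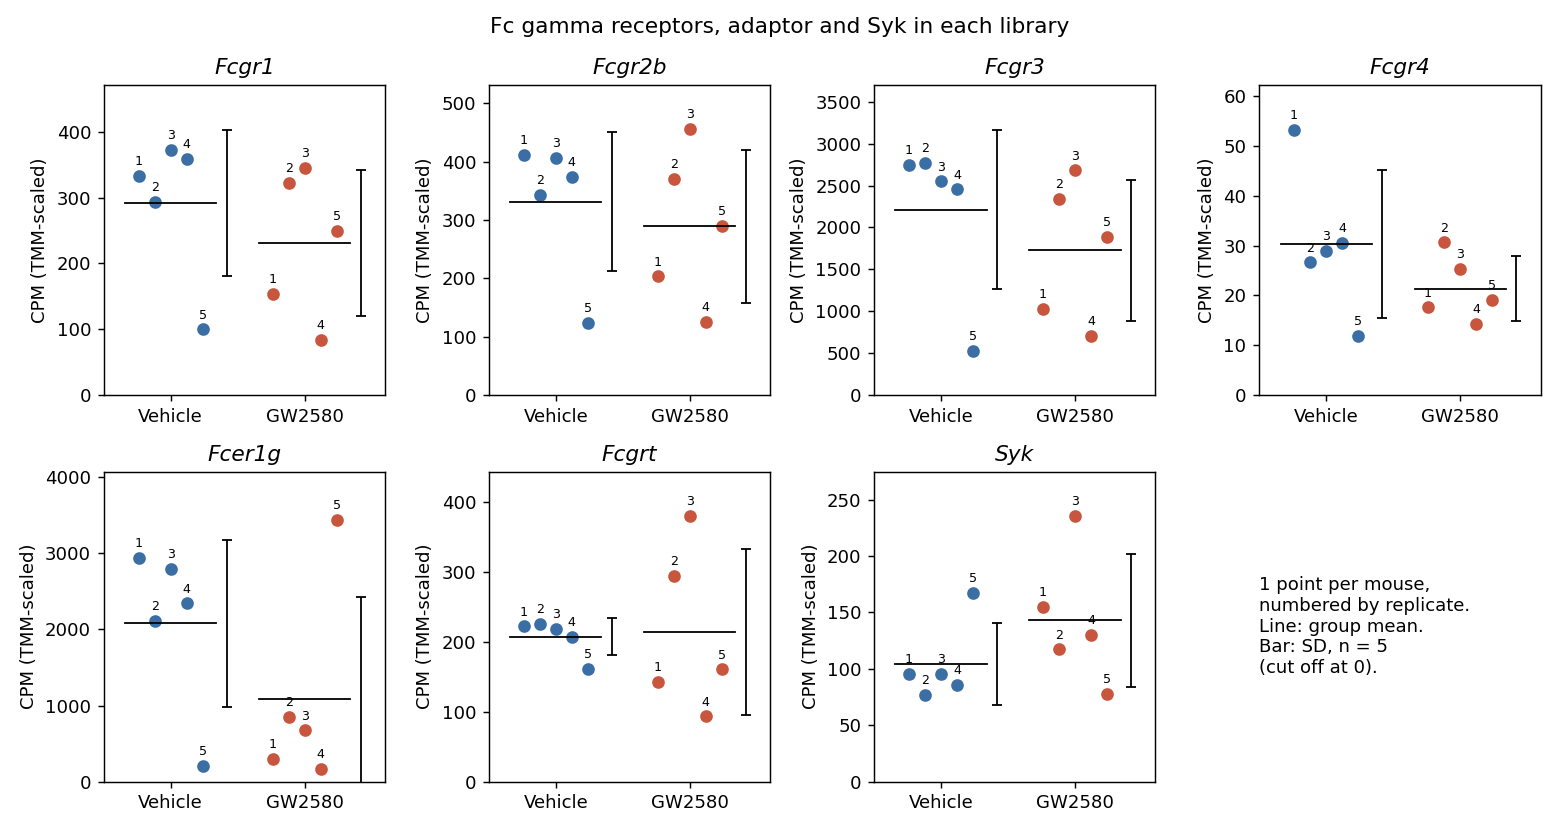
TMM-scaled CPM (vertical axis, linear from 0) of each of the 7 genes in each mouse, numbered by replicate, with the group mean as a line and the SD (n = 5) as a bar. Vehicle 5 sits far below the other vehicle libraries for Fcgr1, Fcgr2b, Fcgr3 and Fcer1g and above them for Syk, and GW2580 5 is the highest library for Fcer1g at 3435 CPM.

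Fcgr3, the low-affinity activating receptor and the most abundant of the 4 Fc gamma receptors, had 2748, 2771, 2550, 2455 and 530 CPM in Vehicle 1 to 5 and 1028, 2343, 2681, 706 and 1885 CPM in GW2580 1 to 5. Vehicle 5 was the lowest of the 10 libraries and the groups overlapped throughout. The log2 fold change was -0.35 ± 0.52 (SE, n = 5 per group; p = 0.507, adjusted p = 0.766 in edgeR's quasi-likelihood test; exact two-sided permutation p = 0.381). Leaving out 1 library at a time gave -0.61 without Vehicle 5 (unadjusted p = 0.227) at one end and -0.15 without GW2580 4 at the other, with -0.21 without GW2580 1.

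Fcgr1, the high-affinity receptor that can hold single IgG molecules, had 332, 294, 372, 359 and 99.5 CPM with vehicle and 153, 322, 345, 83.2 and 249 CPM with GW2580, in replicate order. Vehicle 5, GW2580 4 and GW2580 1 were the 3 lowest, and GW2580 2 and 3 lay within the range of the other vehicle libraries. Its log2 difference was -0.34 ± 0.45 (adjusted p = 0.742, edgeR; exact permutation p = 0.373). It was -0.56 without Vehicle 5, -0.22 without GW2580 1 and -0.12 without GW2580 4.

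Fcgr4, the activating receptor that prefers the IgG2 subclasses and is known best from monocytes and neutrophils, was low: 53.3, 26.6, 28.9, 30.6 and 11.9 CPM with vehicle, and 17.6, 30.6, 25.3, 14.2 and 19.2 CPM with GW2580. Vehicle 1 was the highest library and Vehicle 5 the lowest, so the vehicle range enclosed the treated one. This gave a log2 fold change of -0.50 ± 0.38 (p = 0.204, adjusted p = 0.537, edgeR; exact permutation p = 0.302). It was -0.20 without Vehicle 1 and -0.71 (unadjusted p = 0.0358, under the 2-fold threshold) without Vehicle 5. Vehicle 1 also had the highest monocyte and granulocyte marker sum and Vehicle 5 the lowest. Among the GW2580 libraries the highest marker sum, 15088 CPM in replicate 2, and the highest Fcgr4 level were likewise in the same mouse, while replicate 3 had the lowest marker sum and the next highest Fcgr4. The part of these cells in the Fcgr4 values was not tested.

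Fcgr2b, the inhibitory receptor, had 412, 343, 406, 373 and 124 CPM with vehicle and 203, 370, 456, 125 and 290 CPM with GW2580. Vehicle 5 and GW2580 4 were nearly level at the bottom and GW2580 3 was at the top. Treatment differed from vehicle by -0.20 ± 0.43 on the log2 scale (adjusted p = 0.848, edgeR; exact permutation p = 0.587). The estimate was -0.42 without GW2580 3 and -0.41 without Vehicle 5, and shrank to -0.09 without GW2580 1 and -0.0020 without GW2580 4.

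The same 3 libraries, Vehicle 5, GW2580 4 and GW2580 1, were the 3 lowest for Fcgr1, Fcgr2b, Fcgr3, Fcgr4 and Fcer1g. The balance between the activating and the inhibitory receptors therefore moved less than the levels did. Per length, the sum of Fcgr1, Fcgr3 and Fcgr4 was 4.03 ± 0.74 times Fcgr2b with vehicle and 3.70 ± 0.33 times with GW2580 (mean ± SD, n = 5 each). The lowest ratio was 2.88 in Vehicle 5 and the highest 4.92 in Vehicle 2, and the treated libraries lay between 3.25 and 4.06, inside the vehicle range. The difference between the group means, -0.33, was smaller than the SD of the vehicle group, and it was -0.62 without Vehicle 5 and -0.11 without Vehicle 2. Fcgr3 made up 67.0 ± 5.11% of the summed per-length level of the 4 receptors with vehicle and 66.6 ± 1.98% with GW2580.

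Fcer1g, the gamma chain with the ITAM shown above, spread the most of the 7 genes. With vehicle it had 2937, 2112, 2799, 2342 and 203 CPM, and with GW2580 301, 845, 672, 164 and 3435 CPM. GW2580 1 to 4 lay below Vehicle 1 to 4, Vehicle 5 lay among the treated libraries and GW2580 5 above all vehicle libraries, which makes a 20.9-fold range. The log2 fold change was -0.94 ± 0.79 (p = 0.255, adjusted p = 0.583, edgeR; exact permutation p = 0.206). Without Vehicle 5 it was -1.23 (unadjusted p = 0.101, edgeR), which did not pass. Without GW2580 5 it was -2.16 (unadjusted p = 0.0107, edgeR) and passed the thresholds, and in male mice alone it was -2.24 (unadjusted p = 0.00836, edgeR) and passed them too. Among all genes tested, 4848 of 27585 passed without GW2580 5 and 4621 of 24019 in males alone. In females, which include Vehicle 5 and GW2580 5, the Fcer1g estimate was -0.30. The difference between the sexes had an unadjusted p = 0.301 in edgeR's quasi-likelihood test (interaction term).

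Tyrobp, the other ITAM adaptor shown above, which pairs with other receptors, varied together with Fcer1g. Tyrobp had 3525, 2243, 2923, 2286 and 193 CPM with vehicle and 354, 1024, 728, 169 and 4387 CPM with GW2580, with the same libraries high and low as for Fcer1g. Per length, Tyrobp was 1.09 to 1.46 times Fcer1g in all 10 libraries, while Fcer1g itself changed 20.9-fold. The log2 fold change of Tyrobp was -0.75 ± 0.83 (adjusted p = 0.683, edgeR; exact permutation p = 0.373). As with Fcer1g, it passed the thresholds without GW2580 5 (-2.07, unadjusted p = 0.0167, edgeR) and in males alone (-2.16, unadjusted p = 0.0118, edgeR). Of all 7573 candidate genes, Tyrobp had the log2 CPM profile nearest to that of Fcer1g over the 10 libraries (Pearson r = 0.997). The next were Tmsb4x, the actin-binding thymosin beta 4 (r = 0.995), and Hspb3, a small heat shock protein (r = 0.994).

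Both adaptor genes are short, and short genes as a class were lower with GW2580. Fcer1g counts over 658 bases and Tyrobp over 575. Among protein-coding genes with a mean over 20 CPM, the 363 genes under 1000 bases had a median log2 fold change of -1.01 and 99.2% of them were lower, the 1145 genes of 1000 to 2000 bases had -0.54, the 2417 genes of 2000 to 4000 bases 0.05, the 2219 genes of 4000 to 8000 bases 0.13 and the 1228 longer genes 0.14. The estimates of Fcer1g (-0.94) and Fcgr4 (-0.50 at 1250 bases) lay close to the median of their length class. Fcgr3 (-0.35 at 2904 bases) and Fcgr1 (-0.34 at 2589 bases) lay below theirs. Fcgrt (0.05 at 1750 bases), Fcgr2b (-0.20 at 1547 bases) and Syk (0.46 at 10142 bases) lay above theirs. Each member lay nearer to its class median than 2 of its own standard errors. With the trend of level on gene length removed in each library, the log2 fold change of Fcer1g was -1.01 (unadjusted p = 0.180, edgeR).

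**Figure D2:**
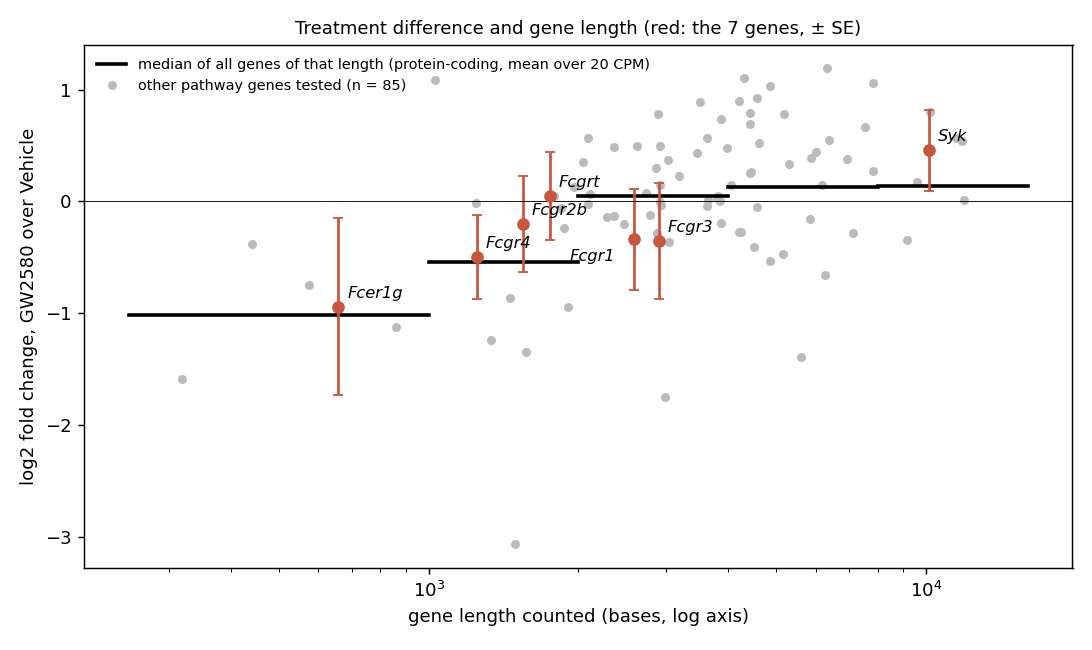
Log2 fold change (GW2580 over Vehicle) against the gene length over which fragments were counted (log axis), for the 7 genes in red with their SE, 85 other pathway genes in grey, and the median of the protein-coding genes with a mean over 20 CPM in each length class as black lines. The class medians run from -1.01 under 1000 bases to 0.14 at 8000 bases and over, and Fcer1g and Syk lie at the 2 ends.

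The share of all counts that fell on protein-coding genes under 1000 bases was 16.6, 14.4, 14.3, 13.3 and 3.24% in Vehicle 1 to 5 and 3.38, 7.38, 3.71, 2.55 and 17.5% in GW2580 1 to 5. The order of the libraries on this share was nearly that of Fcer1g, which is itself one of these genes. Syk, a long gene, had its 3 lowest levels in libraries with a high share and its 3 highest in libraries with a low one. With the mean level of 79 cytosolic ribosomal protein genes, which are short too, as a covariate, Fcer1g had a log2 fold change of 0.17 and Syk of 0.10. The part of RNA length or quality in the difference of Fcer1g was not tested.

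**Figure D3:**
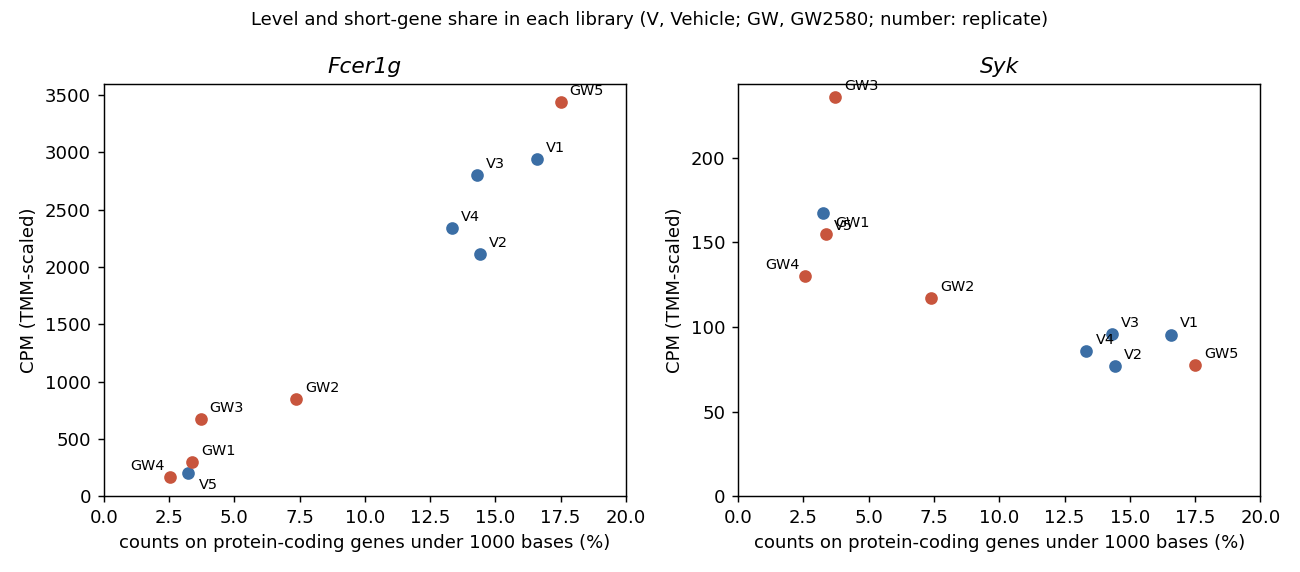
CPM of Fcer1g (left) and Syk (right) against the percentage of counts on protein-coding genes under 1000 bases, 1 point per library. The libraries with 2.55 to 7.38% of counts on short genes, Vehicle 5 included, have 164 to 845 CPM of Fcer1g, and those with 13.3 to 17.5%, GW2580 5 included, have 2112 to 3435 CPM.

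Syk, the kinase that docks on the ITAM, had 95.4, 76.8, 95.8, 85.9 and 167 CPM with vehicle and 155, 117, 236, 130 and 77.5 CPM with GW2580. GW2580 1 to 4 lay above Vehicle 1 to 4, and Vehicle 5 and GW2580 5 each lay on the other group's side, the mirror image of Fcer1g. The log2 fold change was 0.46 ± 0.36 (p = 0.226, adjusted p = 0.556, edgeR; exact permutation p = 0.238). It was 0.69 without Vehicle 5 and 0.20 without GW2580 3, the library with the highest level. Because the adaptor and the kinase varied in opposite ways, the ratio of Fcer1g to Syk per length ran from 18.8 in Vehicle 5 to 684 in GW2580 5. In Vehicle 1 to 4 it lay between 420.2 and 474, and in GW2580 1 to 4 between 19.5 and 111.

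Fcgrt, the heavy chain of the neonatal Fc receptor, binds IgG inside endosomes and returns it to the surface, and carries no ITAM function. It had 222, 226, 219, 207 and 162 CPM with vehicle and 142, 295, 380, 93.4 and 161 CPM with GW2580. The vehicle libraries stayed within a 1.40-fold range, and the treated ones spread over 4.07-fold, 3 of them below and 2 above all vehicle libraries. The group means were therefore close, 207 ± 26.5 and 214 ± 119 CPM (SD, n = 5), with a log2 fold change of 0.05 ± 0.39 (adjusted p = 0.964, edgeR; exact permutation p = 0.873). The sign of this estimate turned without Vehicle 5 (-0.03), without GW2580 2 (-0.09) and without GW2580 3 (-0.26). B2m, which encodes the light chain that Fcgrt needs to reach the surface and is also part of every MHC class I molecule, had 3646, 3576, 4664, 3786 and 720 CPM with vehicle and 799, 1888, 1557, 359 and 2907 CPM with GW2580. Its log2 fold change was -1.13 ± 0.60 (p = 0.0816, adjusted p = 0.389, edgeR; exact permutation p = 0.0794). B2m passed the thresholds in 8 of 30 alternatives, among them without Vehicle 5 (-1.38, unadjusted p = 0.0263, edgeR), without GW2580 5 (-1.60, unadjusted p = 0.0250, edgeR) and with DESeq2 (-1.14, unadjusted p = 0.0317), and with the ribosomal covariate it was at -0.14. B2m, counted over 858 bases, followed the library order of Fcer1g rather than that of Fcgrt: the same 4 vehicle libraries and GW2580 5 were its 5 highest.

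**Figure D4:**
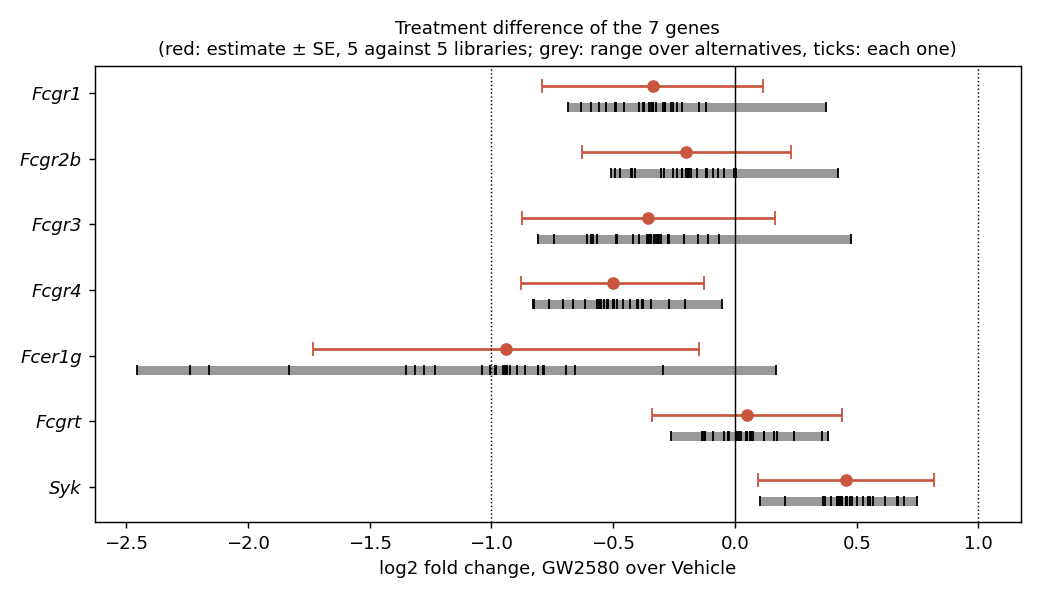
Log2 fold change of each gene (GW2580 over Vehicle; red, estimate ± SE from 5 against 5 libraries) and, in grey, the range over the 30 alternative analyses with a tick for each, the dotted lines marking a 2-fold change. The red estimates all lie within the dotted lines, and Fcer1g has the widest grey range, from -2.46 to 0.17.

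Compared per length, as CPM per kilobase, the 7 genes fell into a wide order. The mean over the 10 libraries was 2403 for Fcer1g, 678 for Fcgr3, 200.5 for Fcgr2b, 120.4 for Fcgrt, 101 for Fcgr1, 20.6 for Fcgr4 and 12.2 for Syk. Fcer1g was above Fcgr3 in 10 of 10 libraries, although in GW2580 4 the values were close, at 249.6 and 243. Fcgr3 was above Fcgr2b in 10 of 10, Fcgr2b above Fcgrt in 9 and Fcgr1 above Fcgr4 in 10. Fcgrt and Fcgr1, with Fcgrt higher in 6 of 10 libraries, and Fcgr4 and Syk, with Fcgr4 higher in 6 of 10, did not differ beyond their spread. In Vehicle 1 to 4, Fcer1g was at 3210 to 4464 CPM per kilobase and Fcgr3 at 845 to 954.

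**Figure D5:**
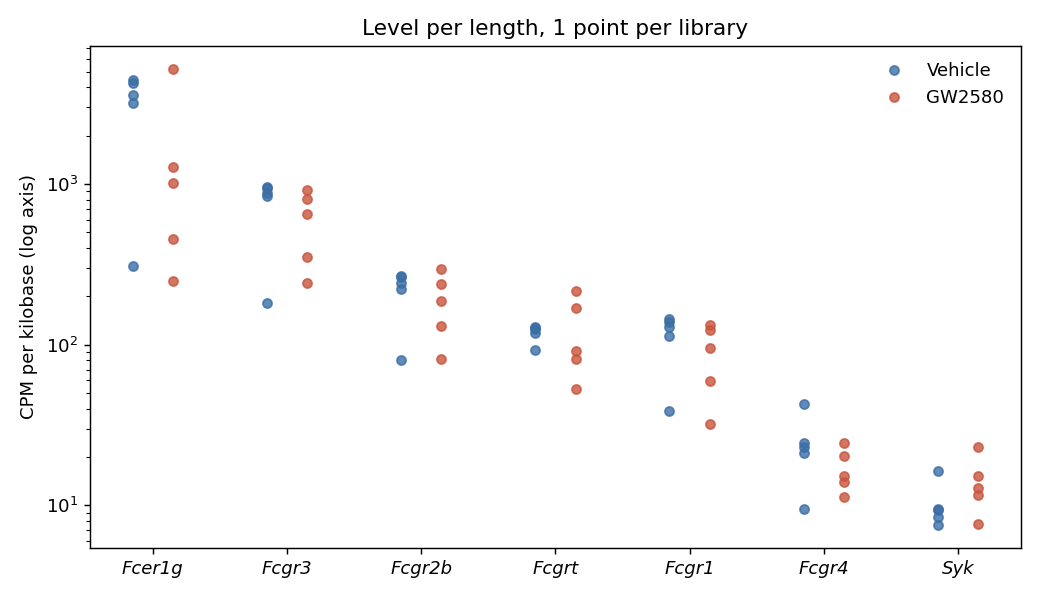
TMM-scaled CPM per kilobase (log axis) of the 7 genes in descending order of their mean, 1 point per library, blue for Vehicle and red for GW2580. Fcer1g spans 249.6 to 5220 and Syk 7.57 to 23.2, and the ranges of Fcgrt and Fcgr1 overlap.

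Genes with the log2 CPM profile nearest to that of each member were found as for Fcer1g, as a description over 10 libraries that share the composition differences given above. For Fcgr3 they were Ctss, the lysosomal protease cathepsin S (r = 0.996), Ctsh, cathepsin H (r = 0.991), and Ms4a6d, a membrane protein of the MS4A family (r = 0.989). Ctss (r = 0.988), Ctsh (r = 0.988) and Ms4a6b (r = 0.990) were also nearest to Fcgr2b. Fcgr1 was nearest to Erp29, an endoplasmic reticulum chaperone (r = 0.992), Ms4a6b (r = 0.991) and Cd9, a tetraspanin (r = 0.990). Fcgr4 had looser neighbours, Spp1, osteopontin (r = 0.936), Ncf4, a subunit of the phagocyte oxidase (r = 0.925), and Lyz2, lysozyme of myeloid cells (r = 0.908). Syk was nearest to Sec61a1, the channel of the endoplasmic reticulum (r = 0.997), and Fcgrt to Sdf4, a calcium-binding protein of the Golgi (r = 0.991).

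Transcripts of the receptors' ligands were also counted, while IgG protein, which reaches microglia from elsewhere, was not measured. Of 7 immunoglobulin and pentraxin genes, 3 passed the filter, Ighg2b, Ighg2c and Igkc, and 0 were called. Ighg2c, a heavy chain of IgG in this strain, had 0.06 to 2.87 CPM with vehicle and 1.39 to 4.12 with GW2580 (log2 fold change 1.03 ± 0.64, adjusted p = 0.453, edgeR). It passed the thresholds without Vehicle 2 (1.59, unadjusted p = 0.0308, edgeR) and without Vehicle 2 and 5 (1.19, unadjusted p = 0.0248, edgeR). In limma-voom it passed as well (1.71, unadjusted p = 0.0375). Igkc, the kappa light chain constant gene of B lineage cells, had 5.45 to 59.3 CPM in Vehicle 1 to 4 and 198 in Vehicle 5, and with GW2580 1.00 to 76.6 CPM, with the highest in replicate 2. Its estimate was -1.58 ± 1.12 (adjusted p = 0.510, edgeR), -0.38 without Vehicle 5 and -3.29 (unadjusted p = 0.0107, past the thresholds) without GW2580 2. It also passed in edgeR with sex as a covariate (-3.36, unadjusted p = 0.0424), with the replicate number as a block (-2.24, unadjusted p = 0.0418) and in females alone (-5.24, unadjusted p = 0.00181), and in limma-voom (-2.42, unadjusted p = 0.0481). Vehicle 5 also had the highest sum of B, T and NK cell markers, 428 CPM against 38.6 to 95.6 in the other vehicle libraries. The CD11b selection should remove most of these cells, and their part in the immunoglobulin counts was not tested.

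Other Fc receptors and relatives were all tested, 14 of 14, with 6 higher, 8 lower, a median log2 fold change of -0.08, and 1 called in each direction. Fcer1a, the IgE-binding chain of mast cells and basophils that also pairs with Fcer1g, was called higher at very low levels, 0.49 to 2.19 CPM with vehicle and 1.35 to 3.39 with GW2580 (log2 fold change 1.08 ± 0.45, p = 0.0292, adjusted p = 0.301, edgeR; exact permutation p = 0.0317). It missed the thresholds in 9 of 29 alternatives, as without GW2580 1 (0.94, unadjusted p = 0.0751). Fcmr, the IgM receptor of lymphocytes, was called lower (-3.07, unadjusted p = 0.0259, edgeR; exact permutation p = 0.817) through Vehicle 5 alone, which had 100.2 CPM against 1.09 to 1.89 in the other vehicle libraries and 0.67 to 6.06 with GW2580. Without that library Fcmr was at 0.80 (unadjusted p = 0.150), and without GW2580 3, 4 or 5 it was at -2.82 to -2.94 (unadjusted p = 0.0529 to 0.0685), past the thresholds in none of these fits. In male mice alone the call reversed, with Fcmr at 1.25 (unadjusted p = 0.0373, edgeR). Fcrls, an Fc receptor-like gene that marks microglia, had 1140 to 2373 CPM with vehicle and 1402 to 4979 with GW2580 (0.49 ± 0.45, adjusted p = 0.615, edgeR). Its estimate was 0.13 without GW2580 3. Fcrl1, known from B cells, had 40.0 to 97.6 CPM with vehicle and 43.5 to 132 with GW2580.

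Of the 3 other adaptors, Tyrobp, Hcst and Cd247, 3 had estimates below 0 and 0 were called (median -0.66). Hcst, the DAP10 adaptor, repeated the library pattern of Tyrobp at 23.0 to 49.6 CPM in Vehicle 1 to 4, 6.01 in Vehicle 5, 2.18 to 17.1 in GW2580 1 to 4 and 73.3 in GW2580 5. Its estimate was -0.38 ± 0.80 (adjusted p = 0.845, edgeR), and it passed the thresholds without GW2580 5 (-1.93, unadjusted p = 0.0110, edgeR) and in males alone (-1.87, unadjusted p = 0.0227, edgeR). In these fits 4848 of 27585 and 4621 of 24019 genes passed. Cd247, the zeta chain of T and NK cells, had 8.19 to 17.9 CPM with vehicle and 2.11 to 12.1 with GW2580. Its estimate was -0.66 ± 0.41 (adjusted p = 0.450, edgeR), and -0.23 with scaling by library size alone. With the share of fragments on no annotated exon as a covariate it passed the thresholds (-1.25, unadjusted p = 0.0220, edgeR).

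Of 13 further receptors that couple to Fcer1g, Tyrobp or an ITAM-like motif, 10 passed the filter, 2 higher and 8 lower with 0 called (median -0.10). The other 3 were Trem1, Trem3 and Trem2, with at most 24, 2 and 1 counts in any library, so the list holds no usable value for them. Whether the near absence of Trem2 counts comes from the cells or from the counting was not tested, so it is not read as absent expression. Siglech, a sialic acid-binding receptor of microglia that signals through Tyrobp, was the most abundant per length of these 10, with 1772 to 2166 CPM in Vehicle 1 to 4, 479 in Vehicle 5 and 576 to 2138 with GW2580. Cd300c2, an activating receptor that uses the gamma chain, had 551 to 674 CPM in Vehicle 1 to 4, 67.7 in Vehicle 5 and 85.6 to 407 with GW2580 (-0.86 ± 0.58, adjusted p = 0.486, edgeR; exact permutation p = 0.143). Without Vehicle 5 its estimate was -1.14 (unadjusted p = 0.0232) and passed the thresholds. Clec5a, which signals through Tyrobp, differed little on average (log2 fold change 0.05), with 51.0 CPM in Vehicle 5, 131 to 144 in the other vehicle libraries and 61.3 to 209 with GW2580.

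Src family kinases, which phosphorylate the ITAM, and the phosphatase Ptprc (CD45) that activates them gave 5 higher and 4 lower of 9, with 0 called and a median of 0.15. Lyn, the kinase that also phosphorylates the ITIM of Fcgr2b, had 339, 229, 367, 321 and 248 CPM with vehicle and 536, 451, 1086, 365 and 341 CPM with GW2580. Its lowest treated library was above 4 of the 5 vehicle libraries. The log2 fold change was 0.89 ± 0.39 (p = 0.0391, adjusted p = 0.318, edgeR; exact permutation p = 0.0317), under the 2-fold threshold, and it was 0.49 (unadjusted p = 0.113) without GW2580 3 and 1.01 (unadjusted p = 0.0206), past the thresholds, without GW2580 4.

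Downstream of Syk, 28 of 29 kinases, adaptors, exchange factors and lipid kinases passed the filter, 22 higher and 6 lower with a median of 0.34, and 1 was called higher and 2 lower (10.7% of the 28, the same share as over all genes). Plcg2, the phospholipase C gamma of myeloid cells, had 84.7, 56.3, 83.8, 69.8 and 112 CPM with vehicle and 195, 89.8, 326, 173 and 89.8 CPM with GW2580. All treated libraries were above Vehicle 1 to 4, and 2 of them below Vehicle 5. Its log2 fold change was 1.10 ± 0.40 (p = 0.0149, adjusted p = 0.280, edgeR; exact permutation p = 0.0476), and 0.75 (unadjusted p = 0.0453), short of 2-fold, without GW2580 3. It missed the thresholds in 7 of 30 alternatives, among them the ribosomal covariate (0.70, unadjusted p = 0.112, edgeR), the replicate number as a block (0.97) and limma-voom (0.96). Zap70, the T cell relative of Syk, and Lat, a membrane adaptor of T cells and platelets, were called lower at low levels. Zap70 had 2.42 to 5.39 CPM in Vehicle 1 to 4, 20.1 in Vehicle 5 and 1.28 to 2.71 with GW2580 (-1.74 ± 0.55, p = 0.00674, adjusted p = 0.280, edgeR; exact permutation p = 0.0238), and without Vehicle 5 it was at -0.82. Lat was at -1.35 (unadjusted p = 0.0300, adjusted p = 0.302, edgeR; exact permutation p = 0.0952) and at -0.56 without Vehicle 5, which had 14.5 of its CPM. Lat missed the thresholds in 13 of 30 alternatives, among them limma-voom (-1.13, unadjusted p = 0.0612) and without GW2580 4 (-1.31, unadjusted p = 0.0590, edgeR). These T cell genes were thus highest in the library with the highest lymphocyte marker sum. The most abundant genes per length, the GTPases Rac1 and Cdc42 that drive actin at the phagocytic cup and the adaptor Blnk, had log2 fold changes of -0.13, -0.05 and 0.05.

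Among 18 phosphatases, adaptors, ligases and ITIM receptors that damp ITAM signals, 13 were higher and 5 lower with a median of 0.20, and 1 was called in each direction. Sirpa, the receptor for the CD47 signal that restrains phagocytosis, had 726, 553, 803, 684 and 1284 CPM with vehicle and 2182, 1037, 3733, 1683 and 602 CPM with GW2580. GW2580 2 and 5 lay within the vehicle range and the other treated libraries above it. Its log2 fold change was 1.19 ± 0.49 (p = 0.0303, adjusted p = 0.302, edgeR; exact permutation p = 0.0794), and it missed the thresholds in 12 of 30 alternatives, as without GW2580 3 (0.77, unadjusted p = 0.0935). Ptpn11, the phosphatase SHP-2, was called lower, with 39.4, 176, 49.0, 59.4 and 101 CPM with vehicle and 20.5, 36.4, 32.4, 26.4 and 46.0 CPM with GW2580 (-1.39 ± 0.43, p = 0.00562, adjusted p = 0.280, edgeR; exact permutation p = 0.0159). Only GW2580 5 overlapped the vehicle range, and without Vehicle 2, the library with the highest level, the estimate was -0.94 (unadjusted p = 0.0236), short of 2-fold. Vehicle 2 also had the highest astrocyte, oligodendrocyte and neuron marker sums, 3038, 15320 and 436 CPM, although the CD11b selection should remove these cells. With the mean of these markers as a covariate Ptpn11 was at -0.99 (unadjusted p = 0.0272, edgeR), and without Vehicle 2 and 5 at -0.61 (unadjusted p = 0.0827, edgeR), neither of which passed the thresholds. Ptpn6, the phosphatase SHP-1, had 389 to 480 CPM with vehicle and 320.2 to 1134 with GW2580 (0.50, and 0.17 without GW2580 3). Lair1, an inhibitory collagen receptor, had 270.4 to 642 CPM with vehicle and 319 to 1149 with GW2580 (0.27).

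Over the 93 genes of these lists, 85 were tested, 50 higher and 35 lower, with a median log2 fold change of 0.08. The thresholds were passed by 7 of them, 3 higher and 4 lower, which is 8.24% beside 10.7% over all genes. The interaction of sex and treatment had an unadjusted p under 0.05 in edgeR for 0 of the 7 members. It rests on 2 males and 3 females per group, and the share of all genes at that p is not given here. This count therefore does not show that the sexes responded alike.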

How the data were processed

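The authors aligned paired reads of CD11b-selected brain microglia with STAR to GRCm38 and counted uniquely aligned fragments per gene over exons without regard to strand (featureCounts 1.6.3 with the RefSeq annotation of GRCm38.p6, per the file headers). They deposited these counts without normalization, 1 table per mouse. Groups, sex and replicate numbers came from the labels, which do not say whether mice shared a litter or preparation day. Symbols came from RefSeq (46029 of 46152 gene identifiers matched). Genes over 1 CPM in at least 3 libraries were fitted with TMM factors and edgeR's quasi-likelihood F test (edgeR 4.0.16, R 4.3.3), treatment being the only term. Called genes had a fold over 2 and an unadjusted p under 0.05. SE is the log2 fold change over the square root of F. Single genes were also tested by exact two-sided permutation of mean CPM over all 252 choices of 5 of 10 libraries, where the smallest possible p is 0.00794. Members and lists were chosen with earlier results of these data known. Named are the 7 members and, per list, up to 3 genes of highest level per length, up to 3 called genes in each direction, and the 3 nearest profiles per member among genes with a mean over 20 CPM. Alternatives used DESeq2 1.42.0, limma 3.58.1, other scalings, filters, covariates and left-out libraries. Replicates differed beyond counting noise in all pairs. Counting fragments without molecular identifiers are not independent molecules. Some genes are not reported here singly. Protein sequences were not used here.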

Additional observations from a re-analysis of the deposited data

Results flagged for a closer look

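In groups of 5, a library was marked where its gap to the nearest other library made up more of the group's range than Dixon's critical value for 5 values allows. This marked 20 of 68 groups checked, where chance marks about 1 in 20 of independent groups. The groups are different genes in the same libraries and are not independent, so the count cannot be read against that rate. In 14 of the 20 the library was Vehicle 5. Among the members, its CPM were 99.5 for Fcgr1, 123.9 for Fcgr2b and 529.7 for Fcgr3, below the other vehicle libraries, and 167.0 for Syk, above them. Among the other genes Vehicle 5 was low for B2m (719.9), Siglech (479.3), Cd300c2 (67.7), Clec5a (50.95), Cdc42 (512.5) and Lair1 (270.4), and high for Fcmr (100.2), Igkc (198.0), Zap70 (20.1) and Lat (14.5).

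GW2580 5 was marked for the 3 adaptor genes with short transcripts, Fcer1g (3435 CPM), Tyrobp (4387) and Hcst (73.3), each above the other treated libraries. GW2580 2 was high for Igkc (76.6) and Lat (4.22), and GW2580 3 for Lyn (1086). The causes were not tested.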

How the results depend on the processing

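Of 30 alternatives, the count of members past the thresholds stayed at 0 in all but male mice alone (1), without Vehicle 5 and GW2580 5 (1) and the fits that leave out 1 library each (0 to 1), and the gene was Fcer1g each time (-2.46, unadjusted p = 0.000517, edgeR, without Vehicle 5 and GW2580 5). Those 2 libraries were left out for their place on a component that separates most of the groups, so that fit favours a difference: 4844 genes had an adjusted p under 0.05 in it. The thresholds were passed there by 6057 of 27215 genes, in males by 4621 of 24019 and without GW2580 5 by 4848 of 27585. Each is a larger share than 1 member of 7. The count over all genes, 3046, became 4802 with no filter, 4610 with DESeq2, 1181 with the share of fragments on no annotated exon as a covariate, 794 in females, 4621 in males, 6057 without Vehicle 5 and GW2580 5, 0 with Benjamini-Hochberg adjustment, and 1684 (without GW2580 1) to 4848 (without GW2580 5) when 1 library was left out. Counts thinned to the smallest library gave 2948 calls. The difference in receptor ratio was recomputed with Fcgr3 alone over Fcgr2b (-0.27) and with 1 library left out (-0.62 to -0.11), and not under the other scalings, covariates or splits by sex.

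Replicate numbers did not pair the samples: the deviations of same-numbered libraries correlated at -0.05, 0.39, 0.09, -0.44 and -0.57. With the number as a replicate block, 2554 genes and 0 members were called, and Fcer1g was at -1.83 (unadjusted p = 0.118, edgeR), Fcgrt at -0.12 and Blnk at -0.043.

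Some estimates changed sign. With the ribosomal covariate these were Fcgr1 0.38, Fcgr2b 0.42, Fcgr3 0.48, Fcer1g 0.17, Fcrl1 0.30, Tyrobp 0.41, Hcst 0.50, Siglech 0.38, Cd300c2 0.18 and Cdc42 0.19. With the share on no annotated exon they were Fcgr2b 0.0053, Fcrl1 0.16, Igkc 0.41, Rac1 0.14 and Cdc42 0.20. With the glial and neuronal covariate they were Fcgrt -0.13, Clec5a -0.14 and Blnk -0.14. With limma-voom, Fcgrt was at -0.12 and Blnk at -0.050. With library size alone, Fcrl1 was at 0.068, Rac1 at 0.0061 and Cdc42 at 0.064, and with upper quartile factors Clec5a was at -0.0073. In males they were Fcgrt -0.13, Fcmr 1.25 (a call in the opposite direction, unadjusted p = 0.0373, edgeR), Igkc 0.16, Clec5a -0.20, Rac1 0.011 and Blnk -0.033, and in females Fcrl1 0.027, Hcst 0.45 and Cdc42 0.0021. Without Vehicle 2 and 5, which hold the most glial RNA of the vehicle group, they were Fcgrt -0.025, Fcmr 0.95, Igkc 0.39, Clec5a -0.18 and Blnk -0.12, and without Vehicle 5 and GW2580 5 Fcgrt -0.045, Fcmr 0.83, Clec5a -0.17, Rac1 0.039 and Blnk -0.11. With 1 library left out the ranges were -0.26 to 0.24 for Fcgrt, -0.32 to 0.12 for Fcrl1, -3.67 to 0.80 for Fcmr, -0.22 to 0.23 for Clec5a, -0.44 to 0.011 for Rac1, -0.20 to 0.23 for Blnk, -0.30 to 0.13 for Cdc42 and -0.035 to 0.45 for Lair1. The causes were not tested.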
